A study of Mus musculus with 2 samples.

Results

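The miR-23/27/24 genes form a pair of paralogous microRNA clusters, one on mouse chromosome 8 (Mir23a, Mir27a and Mir24-2) and one on chromosome 13 (Mir23b, Mir27b and Mir24-1). Members were taken by symbol, through their Ensembl identifiers in GENCODE M21, from count tables of 1973 gene rows. The rule names 6 genes, and 5 of them were measured. Mir24-1 was not analysed here. The 5 genes held 63887 reads, or 1.62% of the reads assigned to genes, in replicate 1 and 76390 reads, or 1.58%, in replicate 2.

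The libraries were microRNA-seq of whole hindbrain from strain B6NCrl mouse embryos at 15.5 days, healthy and of mixed sex. Each of the 2 biological replicates was a pool, of 78 embryos in replicate 1 and 62 in replicate 2. No other tissue, age, genotype or treatment belongs to the series, so the comparisons possible are those between members within a library and those between the pools. Depth was 3937840 reads on the genes' own strand in replicate 1 and 4839647 in replicate 2. Levels are given as CPM, counts per 1000000 of these own-strand gene reads. One read was worth 0.254 CPM in replicate 1 and 0.207 CPM in replicate 2. Intervals cover counting error only, since reads without molecular identifiers are not independent molecules.

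As background, the hairpins of each cluster lie head to tail in a shared primary transcript. The enzyme Drosha cuts them out of it, and the enzyme Dicer then cuts the hairpins further. A mature microRNA loaded into an Argonaute protein finds messenger RNAs mainly through its seed, bases 2 to 8 from the 5′ end. The clusters are known for roles in endothelial cells and blood vessel growth. In neurons, miR-23 and miR-27 are known as repressors of Apaf1, an activator of cell death, and miR-27 is known in lipid metabolism.

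The mature arms are shown first, because what the arms share sets which reads can be given to 1 gene. The RefSeq table (GRCm38.p6, the build of the count tables) held 11 mature arms for the 6 genes. It held no miR-23b-3p, so that arm of Mir23b is not printed and its sharing with other loci was not searched. The 3p arms listed there, each read 5′ to 3′ with the seed in capitals, are these.
miR-23a-3p: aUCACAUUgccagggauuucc
miR-27a-3p: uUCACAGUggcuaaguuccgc
miR-27b-3p: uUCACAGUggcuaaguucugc
miR-24-3p: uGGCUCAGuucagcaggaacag

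The arms of miR-27a-3p and miR-27b-3p have the same seed, UCACAGU, and differed by the single substitution C19U, counted from 1 at the 5′ end of miR-27a-3p. Mature miR-24-3p is the same 22 nt at Mir24-2 and Mir24-1, so its whole sequence lies at 2 loci and no read confined to it can be given to either. Among 2202 annotated microRNA genes searched on both strands, the first 19 bases of miR-23a-3p, miR-27a-3p or miR-27b-3p were needed to reach a stretch found at 1 locus. Only 2 bases of each of these arms lie beyond that point.

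The miR-24 genes have 5p arms that differ, and these are printed because they are the mature arms of that family that can separate its loci.
miR-24-2-5p: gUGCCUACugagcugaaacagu
miR-24-1-5p: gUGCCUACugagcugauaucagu

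They share the seed UGCCUAC, and their first 17 bases reach a stretch found at 1 locus. The other 5p arms separate sooner, after 10 bases for miR-23a-5p, 11 for miR-23b-5p, 9 for miR-27a-5p and 11 for miR-27b-5p. The seed GGCUCAG of miR-24-3p also occurs in miR-6413, miR-6410, miR-6369 and miR-5124b, and the genes of those 4 had 0 reads in both libraries.

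The whole hairpins, mature arms included, show how far the genes of each paralogous pair resemble each other. Capitals mark the longest stretch that both genes of a pair hold, and all 6 genes lie on the plus strand.
Mir23a: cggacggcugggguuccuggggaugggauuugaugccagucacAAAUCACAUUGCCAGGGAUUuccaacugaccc
Mir23b: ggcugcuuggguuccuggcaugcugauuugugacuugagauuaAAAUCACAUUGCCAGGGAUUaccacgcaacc
Mir27a: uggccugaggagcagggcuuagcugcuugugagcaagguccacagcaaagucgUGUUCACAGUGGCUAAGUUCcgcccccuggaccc
Mir27b: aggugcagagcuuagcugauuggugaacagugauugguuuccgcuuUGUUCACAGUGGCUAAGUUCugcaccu
Mir24-2: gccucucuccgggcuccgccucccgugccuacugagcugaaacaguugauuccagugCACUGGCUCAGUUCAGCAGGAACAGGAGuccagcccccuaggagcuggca
Mir24-1: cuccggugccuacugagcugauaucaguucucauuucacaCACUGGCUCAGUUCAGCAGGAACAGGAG

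The stretch that Mir23a and Mir23b share holds the seed of miR-23a-3p, UCACAUU. The shared stretch was 20 nt for Mir23a and Mir23b, 20 nt for Mir27a and Mir27b, and 28 nt for the miR-24 pair. In a global alignment the hairpins were identical at 57 of 79 positions (72.2%) for miR-23, 53 of 89 (59.6%) for miR-27 and 60 of 110 (54.5%) for miR-24. All 5 measured members share at least 20 nt with another locus, as did 92 of the 426 genes tested (21.6%). In each pair the chromosome 8 hairpin was richer in G and C, with 56.0% in Mir23a against 48.6% in Mir23b, 59.8% in Mir27a against 47.9% in Mir27b, and 61.7% in Mir24-2 against 51.5% in Mir24-1. The median over the tested genes was 51.0%, with quartiles at 44.4% and 57.1%.

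The clusters differ in size and in what surrounds them (coordinates on mm10, from M21). Mir23a (ENSMUSG00000065611.1; chr8:84208518-84208592), Mir27a (ENSMUSG00000065444.1; chr8:84208672-84208758) and Mir24-2 (ENSMUSG00000065541.1; chr8:84208815-84208921) span 404 nt, with gaps of 79 and 56 nt. Mir23a and Mir27a overlap no annotated gene. Mir24-2 overlaps the first 2 nt of the long non-coding RNA Gm26532 on its own strand, and the microRNA gene Mir3074-2 on the opposite strand. Mir23b (ENSMUSG00000065599.1; chr13:63300484-63300557), Mir27b (ENSMUSG00000065475.1; chr13:63300712-63300784) and Mir24-1 (chr13:63301208-63301275) span 792 nt, with gaps of 154 and 423 nt. They lie within 2010111I01Rik (Aopep, which encodes an aminopeptidase) on its strand, and within an intron of Fancc, a gene of the Fanconi anaemia DNA repair pathway, on the opposite strand. Mir23b is intronic in 2010111I01Rik. Mir27b and Mir24-1 overlap exons of non-coding or nonsense-mediated decay transcripts of that gene, and no exon of a transcript annotated there as protein coding. The tables carry version 1 of the Mir23b and Mir27b gene models and M21 carries version 2, so the stretch that was counted may differ from the one given here.

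**Figure D1:**
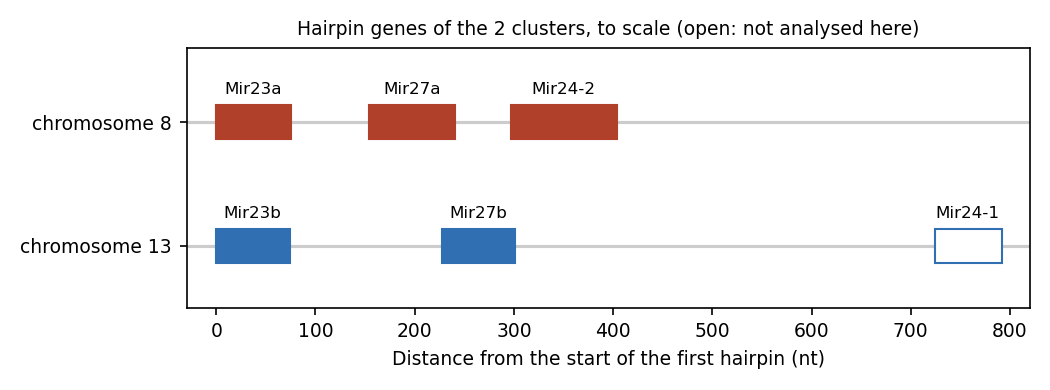
Map of the hairpin genes, with the distance in nt from the start of the first hairpin of each cluster on the horizontal axis. The chromosome 8 hairpins fill 404 nt and the chromosome 13 hairpins 792 nt, with the open box marking Mir24-1, which was not analysed here.

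The miR-23 genes carried nearly all reads counted for the measured genes of both clusters. Mir24-1 is not among those genes, and reads confined to miR-24-3p may be missing. The counts therefore do not set miR-23 against miR-24. For Mir23b 39619 reads were counted in replicate 1 and 45759 in replicate 2, or 10061 and 9455 CPM, with a mean of 9758 ± 429 CPM (SD, n = 2). Mir23a had 21275 and 27636 reads, which is 5403 and 5710 CPM, with a mean of 5557 ± 218 CPM (n = 2). The ranges of these genes over the libraries did not overlap, Mir23b being the higher in each. By mean CPM they stood at rank 18 and rank 35 of the 1973 genes. Of the genes ranked, 1252 had no own-strand read in either library.

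The miR-27 genes were far lower in reads. Mir27b had 2432 and 2421 reads, which is 618 and 500 CPM, with a mean of 559 ± 83.0 CPM (n = 2) and rank 118. Mir27a had 202 and 213 reads, which is 51.3 and 44.0 CPM, with a mean of 47.7 ± 5.15 CPM (n = 2) and rank 247. Replicate 1 was the higher for both genes. Mir24-2, whose family is known for effects on cell proliferation and death, had 359 and 361 reads. That is 91.2 and 74.6 CPM, with a mean of 82.9 ± 11.7 CPM (n = 2) and rank 218. Reads confined to miR-24-3p lie at 2 loci and can be given to no gene if such reads were left out of the gene counts, so this value is not a level of the mature miR-24-3p. The reads listed as placed at several loci were 2947397 in replicate 1 (35.4% of all reads) and 3596192 in replicate 2 (34.2%), and how many came from these clusters was not tested.

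**Figure D2:**
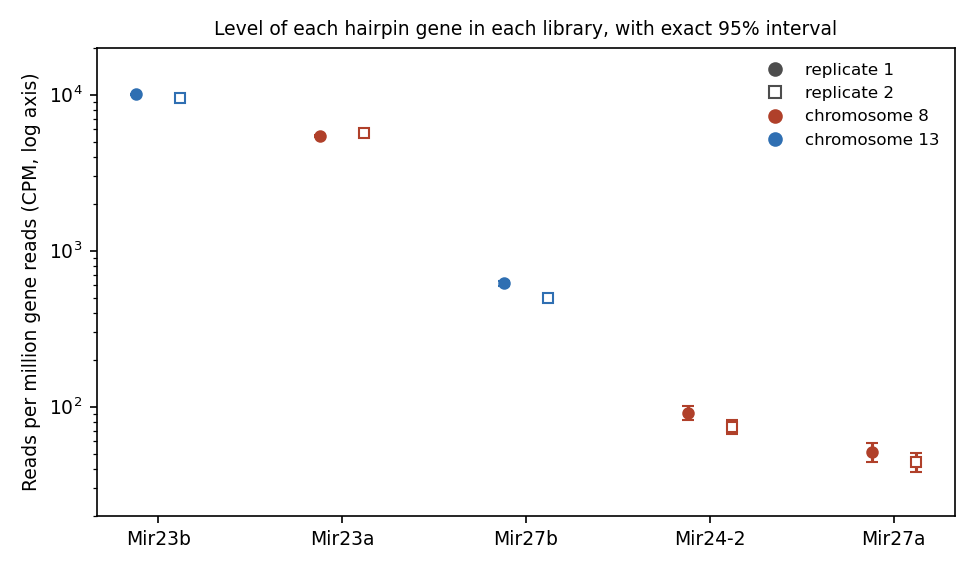
Level of each hairpin gene in each library, in CPM on a log axis, with exact 95% intervals of counting error that are mostly smaller than the symbols. The genes kept the order Mir23b, Mir23a, Mir27b, Mir24-2, Mir27a in replicate 1 and replicate 2, from 10061 and 9455 CPM for Mir23b down to 51.3 and 44.0 CPM for Mir27a.

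The order of the 5 genes was the same in each library. Mir23b exceeded Mir23a 1.86-fold in replicate 1 (95% exact interval 1.83 to 1.89) and 1.66-fold in replicate 2 (1.63 to 1.68). Mir23a exceeded Mir27b 8.75-fold and 11.4-fold, and Mir27b exceeded Mir24-2 6.77-fold and 6.71-fold. Mir24-2 exceeded Mir27a 1.78-fold (1.49 to 2.12) and 1.69-fold (1.43 to 2.02). The smallest step was that of Mir24-2 over Mir27a in replicate 1 and that of Mir23b over Mir23a in replicate 2. The ranges of neighbouring genes over the libraries did not overlap in any of these 4 steps. Per nucleotide of hairpin the steps were 1.89, 8.51, 9.93 and 1.45-fold in replicate 1 and 1.68, 11.1, 9.83 and 1.38-fold in replicate 2, so the order held on that scale too. A bias of cloning or counting that both libraries share does not appear in the spread between them, so this is an order of reads and not of molecules.

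Within a cluster the genes differed far more than the paralogs of the miR-23 pair did. On chromosome 8, Mir23a held 97.4% of the cluster's reads in replicate 1 (95% exact interval 97.2 to 97.6) and 98.0% in replicate 2 (97.8 to 98.1). It exceeded Mir27a 105-fold and 130-fold, and Mir24-2 59.3-fold and 76.6-fold. On chromosome 13, Mir27b held 5.78% (5.56 to 6.01) and 5.02% (4.83 to 5.22) of the reads of the 2 genes measured there, and Mir23b exceeded it 16.3-fold and 18.9-fold. Other clusters listed for comparison also held unequal reads. The ratio of the highest to the lowest mean CPM was 116.6 in the chromosome 8 cluster, 30.6 in the miR-106b-25 cluster (Mir106b, Mir93 and Mir25), 73.2 for Mir143 over Mir145a and 1.80 for Mir221 over Mir222. It was 1913 in the miR-17-92 cluster, for Mir17 over Mir19b-1. Mir19b-1 had only 44 and 33 reads and shares 20 nt with another locus, which Mir17 does not. Reads at several loci may be missing from its count, so this ratio may be inflated, and by how much was not tested. The same limit holds for Mir23a, Mir27a, Mir24-2, Mir23b and Mir27b, which all share at least 20 nt with another locus. How far missing reads changed their shares and folds was not tested. Apart from miR-17-92, no gene of the clusters listed for comparison shares 20 nt with another locus. Their ratios are therefore not on an equal footing with that of the chromosome 8 cluster.

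The chromosome 13 cluster gave more reads than its paralog, the more so for miR-27. Its 2 measured genes held 1.07% of gene reads in replicate 1 and 0.996% in replicate 2, with a mean of 1.03% ± 0.0512 (n = 2). The 3 genes on chromosome 8 held 0.555% and 0.583%, with a mean of 0.569% ± 0.0201 (n = 2). Mir23a supplied 34.9% of the reads of the miR-23 pair in replicate 1 (95% exact interval 34.6 to 35.3) and 37.7% in replicate 2 (37.3 to 38.0). The fold of Mir27b over Mir27a had a 95% exact interval of 10.4 to 14.0 in replicate 1 and 9.88 to 13.1 in replicate 2, and Mir27a supplied 7.67% of the reads of the miR-27 pair (6.68 to 8.75) and 8.09% (7.07 to 9.19). The miR-23 and miR-27 shares did not overlap in any library, and the gap between them was much larger than the spread between the pools, with an SD of 1.92 percentage points for miR-23 and 0.295 for miR-27. The intervals of the miR-23 share in the libraries did not overlap each other, while those of the miR-27 share did. These shares are ratios within a library and do not depend on the scaling between libraries. They do rest on reads that can be given to 1 locus. For miR-23a-3p, miR-27a-3p and miR-27b-3p that takes the first 19 bases, and miR-23b-3p was not searched. Shorter reads may be missing from the counts, and their part in the shares was not tested.

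**Figure D3:**
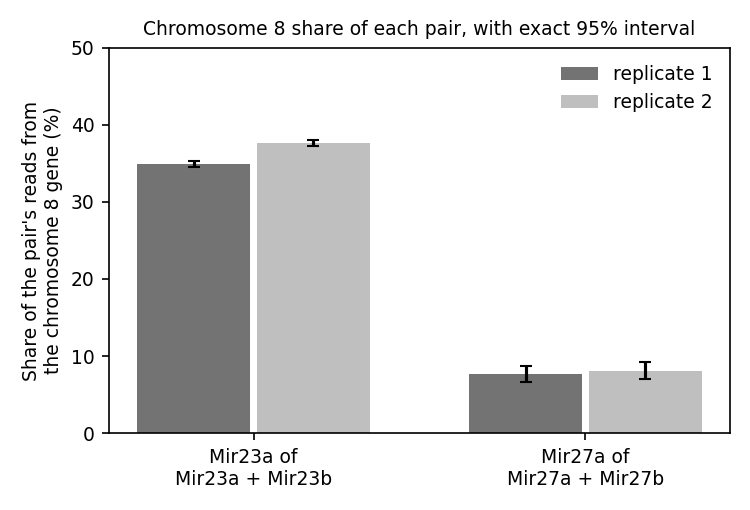
Share of each pair's reads that came from the chromosome 8 gene, in percent, with bars for the libraries and exact 95% intervals of counting error. Mir23a supplied 34.9% and 37.7% of the miR-23 reads, and Mir27a 7.67% and 8.09% of the miR-27 reads.

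The microRNA gene Mir3074-1 (ENSMUSG00000092741.1; chr13:63301199-63301283 in M21, minus strand) covers the whole of Mir24-1 on the opposite strand and was counted. It had 681 reads in replicate 1 and 732 in replicate 2 on its own strand (162 ± 15.3 CPM, n = 2). On the strand opposite to it, which in M21 is that of Mir24-1, lay 37 and 41 reads. The tables carry version 1 of this gene model and M21 version 2, and the strand of version 1 is not given in the sources used here. Which of these counts, if any, came from Mir24-1 therefore cannot be told apart, and none was added to the chromosome 13 cluster. For comparison, Mir24-2 had 2 reads and 1 read on the opposite strand, where Mir3074-2 lies, and the other 4 measured members had 0 reads there.

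The pools were then compared, to give the spread between biological replicates. The test was an exact two-sided binomial test of each gene's reads after TMM scaling, with Benjamini-Hochberg adjustment over 426 genes, those that reached 10 reads in either library. It compares these libraries, with 1 on each side, and covers counting error only. Of all genes tested, 153 (35.9%) differed at an adjusted p of 0.05, of which 65 (15.3% of those tested) were higher in replicate 2 and 88 (20.7%) lower. With genes of 1 read admitted, the split was 72 higher and 65 lower. Of the 5 members, 1 was higher in replicate 2, 3 were lower and 1 did not pass. The members' median log2 ratio of replicate 2 over replicate 1 was -0.24, and that of all genes tested was -0.01.

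The paralogs of the miR-23 pair moved in opposite directions, each by a small amount. Mir23a was higher in replicate 2, with a log2 ratio of 0.06 (95% exact interval 0.04 to 0.09; adjusted binomial p = 9.00e-06, exact test). Mir23b was lower, with a log2 ratio of -0.11 (-0.13 to -0.09; adjusted p = 7.77e-26, exact test). These are ratios of 1.04 and 0.929, so the level of each gene was nearly the same in the pools. The difference between these paralogs itself is the change in their share given above.

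Of the 3 less abundant members, Mir27b and Mir24-2 were lower in replicate 2. Mir27b had a log2 ratio of -0.32 (-0.40 to -0.24; adjusted p = 9.31e-14, exact test). Mir24-2 had a log2 ratio of -0.31 (-0.52 to -0.09; adjusted p = 0.0158, exact test), which was no longer called when genes of 1 read were admitted (adjusted p = 0.0563, exact test). Mir27a stood at -0.24 (-0.52 to 0.05; adjusted p = 0.192, exact test) and did not pass. Its interval holds both 0 and the value of Mir27b.

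**Figure D4:**
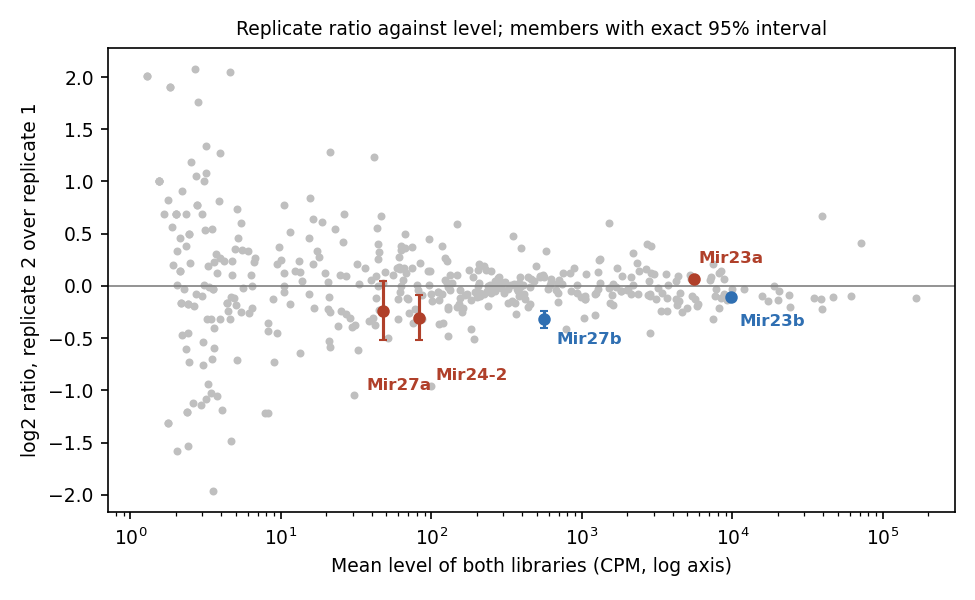
The log2 ratio of replicate 2 over replicate 1 against the mean level of both libraries in CPM (log axis), with members coloured by cluster and given exact 95% intervals, and the other tested genes in grey, apart from 1 gene with 0 reads in a library. Mir23a at 0.06 lies above 0, and Mir23b at -0.11, Mir27b at -0.32, Mir24-2 at -0.31 and Mir27a at -0.24 lie below it.

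None of these differences was called once variation between pools was allowed. The biological coefficient of variation over the tested genes was 10.5%, estimated from the difference between these same libraries. An assumed variation of about that size leaves few calls to be made, so few calls do not show that the pools are alike. With a coefficient of variation of 0.1 assumed, edgeR's exact test called 6 of 426 genes (1.41%) and 0 of the 5 members. The lowest adjusted p among the members by that test was 0.799, for Mir27b. The coefficient of variation of a member's CPM over the pools was 3.91% for Mir23a, 4.39% for Mir23b, 10.8% for Mir27a, 14.1% for Mir24-2 and 14.8% for Mir27b.

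Marker microRNAs of the cell types that the dissection can hold also differed between the pools. The counts that follow are calls of the binomial test, which cover counting error only, beside 15.3% of all tested genes called higher and 20.7% called lower in replicate 2. Mir10a, a Hox cluster microRNA of the posterior nervous system, stood at 71261 ± 14943 CPM (n = 2). The series holds no other tissue to set this level against, so it is not a check of the tissue label. Mir10a and Mir10b were both called higher in replicate 2. Of 10 neural genes tested 6 were called higher and 0 lower (median log2 ratio 0.23), with summed shares of 1.37% and 1.55% of gene reads and none at 0. Among 7 genes tested of the endothelial list 1 was called higher and 3 lower (median -0.02), with shares of 5.43% and 5.01% and none at 0. Mir126a was the highest of them at 24151 ± 2193 CPM (n = 2). Genes of this list are not all particular to endothelial cells, so its counts and shares do not measure that cell type alone. Of 5 smooth muscle and mesenchymal genes tested 3 were called lower and 0 higher (median -0.17), with shares of 0.662% and 0.591% and none at 0. Of 6 blood genes tested 4 were called lower and 0 higher (median -0.30), with shares of 0.0681% and 0.0536% and none at 0. Striated muscle genes held 0.00439% and 0.00574%, with 1 of 3 tested called higher, 0 lower (median -0.16) and 4 of the 7 found at 0. Of the neural genes tested, all but Mir137 share 20 nt with another locus, and none of the endothelial list does. Reads at several loci may count for no gene, so the summed shares do not rank the cell types. For the same reason a share or a count of 0 is not a level of the mature microRNAs. In bulk tissue, fewer cells of a type and less RNA per cell cannot be told apart. The part of cell makeup in the ratios of the clusters was not tested.

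Genes of similar level set the members' ratios in context, the likeness being of mean CPM alone over 2 libraries. Next to Mir23b stood Mir181c and Mir30a above it and Mir369 and Mir30d below it, with log2 ratios of -0.03, -0.03, -0.13 and 0.06. Next to Mir23a stood Mir20a, Mir411, Mir151 and Mir106b, at -0.19, -0.12, -0.10 and 0.06. The small ratios of Mir23a and Mir23b lay within the range of these neighbours. Around Mir27b were Mir9-3, Mirlet7c-1, Mir186 and Mir330, at 0.34, 0.09, 0.11 and 0.08, all on the other side of 0 from Mir27b. Around Mir24-2 were Mir539, Mir877, Mir666 and Mir145a, at -0.32, 0.22, -0.04 and 0.01. Around Mir27a were Mir92-2, Mir30c-2, Mir122 and Mir326, at 0.14, 0.02, 0.66 and -0.23. Mir24-2 lay within the range of its neighbours, and Mir27a just below that of its own.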

How the data were processed

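The authors' deposited counts are raw reads per microRNA gene, made on mm10 with GENCODE M4 per the accompanying notes. How reads were trimmed, aligned and counted is not given in the sources used here. The tables have the layout of STAR gene counts, in which reads at several loci count for no gene, an inference from the layout alone. Column 3 (own strand) was used. Rows that name no gene, with 35.4% and 34.2% of reads at several loci, 13.7% and 15.8% unmapped and 2.56% and 2.96% outside genes, entered neither library sizes nor tests. A row counts reads over a hairpin, so arms are not separated.

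Symbols and positions came from GENCODE M21 (mm10 too), and sequences from RefSeq; the 6 hairpins agreed between them. Scaling and tests used edgeR 4.0.16, DESeq2 1.42.0 and R 4.3.3, with intervals (Clopper-Pearson, 95%) from scipy 1.17.1. Only the binomial test with TMM scaling was run on simulated data. Those data held counting error alone and no variation between pools, so the check does not cover such variation. A quasi-likelihood test across genes was not possible with 1 library on each side. Alternatives were other scalings, count minimums, strands and assumed variation, and each library alone.

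Members and lists were chosen with earlier results of these data known. Named were the members, the 2 genes above and below each by mean CPM, and genes that share a seed. Of the marker lists, counts, sums and the highest member are given; Mir10b, Mir93, Mir25, Mir221, Mir222, Mir17, Mir19b-1 and Mir143 are named to complete a comparison.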

Additional observations from a re-analysis of the deposited data

Results flagged for a closer look

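Reads on the strand opposite to Mir3074-1, a column that no level above uses, numbered 37 in replicate 1 and 41 in replicate 2, above the 3 reads that a count of 0 allows. In M21 that strand carries Mir24-1.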

How the results depend on the processing

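Over 5 members and 7 alternative settings, no log2 ratio changed direction (0 of 35 values). In the 5 settings with no assumed variation, 19 of the 20 values of the 4 called members passed the threshold again and 1 did not, Mir24-2 with genes of 1 read admitted. The 5 values of Mir27a stayed short of it. With a coefficient of variation of 0.1 or 0.2, edgeR's exact test called none of the 4 members that the binomial test called; over all genes the 153 calls became 6 and 0, with 32 and 12 at an unadjusted p under 0.05. With reads placed at several loci added to the denominator, the chromosome 8 share of reads fell from 0.569% to 0.326% and the chromosome 13 share from 1.03% to 0.591%. With 1 library left out, these shares ranged from 0.555% to 0.583% and from 0.996% to 1.07%, and the Mir23a and Mir27a shares of their pairs from 34.9% to 37.7% and from 7.67% to 8.09%. A ratio between pools could not be given with 1 library left out. No paired analysis was possible because the series holds 1 group. Depth limits Mir27a and Mir24-2 most, at 202 to 361 reads.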
